A study of Homo sapiens with 2 samples.

Results

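The compounds described here are inhibitors named for single members or small groups of the histone deacetylase (HDAC) family, tested for 6 h in K562, a widely used human cell line from a chronic myeloid leukaemia, with erythroid features. They were found by compound name in the deposited well annotation: PCI_34051 and PCI34051, named for HDAC8; RGFP966 and RGF966, named for HDAC3; Ricolintostat (commonly spelled ricolinostat) and NexturastatA (nexturastat A), named for HDAC6; and MC1568, named for class IIa HDACs. These 7 names filled 14 of the 192 wells of the series, 1 well on each of 2 plates of 96 wells, among 75 names in all. PCI_34051 and PCI34051 differ in the labels only in spelling, and RGFP966 and RGF966 by 1 letter. Whether each pair was 1 substance is not stated, so every name was analysed on its own and then by named enzyme.

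The names were read against a reference of 16 wells, 2 each of EtOH (ethanol, a solvent), Ofloxacin (an antibacterial), Pinometostat and SGC_0946 (inhibitors of the histone methyltransferase DOT1L), EPZ015666 and GSK591 (inhibitors of the arginine methyltransferase PRMT5), EED226 (a ligand of the Polycomb protein EED) and GSK126 (an inhibitor of the Polycomb methyltransferase EZH2). They were also read against the 24 wells with DMSO, the vehicle. Panobinostat, Quisinostat and Vorinostat, hydroxamates that inhibit many HDACs, had 2 wells each. All wells held the same line with no labelled genetic change, and the exposure was 6 h throughout. Doses were not in the labels, so compounds are matched here for time only, and no result ranks their potency. The duplicates are technical and lay in the same well position on the 2 plates, so p-values measure only the spread between wells, and a compound and its well position cannot be told apart.

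HDACs remove acetyl groups from lysines. HDAC1, HDAC2 and HDAC3 act on histones in corepressor complexes in the nucleus, HDAC3 with NCOR1. HDAC8 deacetylates the cohesin subunit SMC3, HDAC6 is mainly cytoplasmic and deacetylates alpha-tubulin, and the class IIa enzymes, with little catalytic activity of their own, bind MEF2 transcription factors. Inhibitors of the nuclear enzymes raise histone acetylation and shift many mRNAs within hours, whereas tubulin acetylation and other protein marks are invisible to an mRNA assay.

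The assay, MAC-seq, counts the 3′ ends of polyadenylated RNA. Wells of the 7 names held 616515 to 1906446 counts to human genes (median 902838), reference wells 462597 to 1238536 (median 872989.5) and DMSO wells 173553 to 1030814. The fetal globin gene HBG1 stood at 7670 to 8890 CPM (the counts of a gene scaled to a common well total) in wells of the 7 names and 7540 to 8490 in reference wells, while the lymphoid and monocytic genes CD3E, MS4A1, CD14 and CD4 gave at most 2 counts each in either set of wells. LYZ, a monocytic gene, lay at 4.55 to 14.0 CPM in wells of the 7 names and 2.62 to 19.0 in the reference. Of 11 HDAC genes, 9 were abundant enough to test, and 0 were called in any of the 7 names. HDAC8 lay at 8.16 to 20.9 CPM in the 14 wells and 7.92 to 20.1 in the reference, HDAC3 at 63.8 to 96.5 and 60.2 to 87.9, and HDAC6 at 11 to 27.5 and 10.8 to 27.7, ranges that overlap for each of these enzymes.

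The 2 kinds of control differed from each other. DMSO wells differed from the reference in 847 of 9833 genes tested (8.61%) by edgeR's quasi-likelihood test at an adjusted p under 0.05, 369 higher and 478 lower. Of the 24 DMSO wells 8 lay in the first plate column, which was shallow and held no well of the 7 names or the reference. With those 8 wells left out of the control, each of the 7 names had more calls against DMSO, as given below. Columns were inferred here from the well numbers and are not stated in the annotation. In contrast, each reference compound set against the other 7 gave 0 genes for 6 compounds (0.0%) and 1 gene for GSK591 and Pinometostat (0.0102%), with 332 to 464 genes at an unadjusted p under 0.05. Values below are against the reference unless stated.

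In this fit the 2 names for HDAC6 changed more than 1 gene against the reference, most of all NexturastatA. NexturastatA raised 37 genes (0.376% of those tested) and lowered 30 (0.305%), 0.681% in all. The filter on low counts can admit a gene through the wells where it is high. Without that filter 25 genes were higher and 18 lower with NexturastatA, of 28967 tested. Ricolintostat changed 6 (0.061%) and PCI34051 1 (0.0102%), while PCI_34051, RGFP966, RGF966 and MC1568 changed 0 (0.0% each). At an unadjusted p under 0.05 the counts were 942 for NexturastatA, 474 for Ricolintostat, 469 for PCI34051, 487 for PCI_34051, 389 for RGFP966, 350 for RGF966 and 544 for MC1568, against 332 to 464 for the reference compounds. DESeq2 called 72 genes for NexturastatA, 28 for Ricolintostat, 1 for PCI34051 and 0 for the other 4 names. Fitted without the DMSO and broad inhibitor wells, so that these share no part in the estimate of spread, the counts were 122 for NexturastatA, 45 for Ricolintostat, 9 for MC1568, 7 for PCI_34051, 1 each for PCI34051 and RGFP966 and 0 for RGF966. The reference compounds were not set against each other in that fit, so its counts, here and below, have no like background. In genes at a mean log2 CPM of at least 5, the median half-width of the 95% interval of a log2 fold change was 0.26 to 0.35 by name, and the 95% interval lay wholly between -1 and 1 for 97.7% to 99.8% of these 3932 genes.

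NexturastatA, a hydroxamate named for HDAC6, raised genes of several kinds. They include PRPH, a neuronal intermediate filament gene, CORO1A, an actin-binding protein of blood cells, GLRX, a glutathione-dependent oxidoreductase, HES1, a transcriptional repressor of the Notch pathway, ID3, an inhibitor of helix-loop-helix factors, SWI5, a recombination factor, RABAC1, a vesicle protein, and H1-10, a linker histone. Promoters of members of both directions are printed first because the genes moved together in 1 comparison, and the data are read beside them. They are 300 bases of RefSeq on GRCh38.p14, from 250 before to 50 after the start, with capitals marking GGGCGG, the core of the GC box bound by SP-family factors, on either strand (read as CCGCCC on the other). CORO1A (chr16:30183352-30183651, plus strand) and SWI5 (chr9:128275106-128275405, plus strand) stand for genes that were higher, and NOP16 (chr5:176388549-176388848, minus strand) and EMG1 (chr12:6970663-6970962, plus strand), both ribosome assembly factors, for genes that were lower.
CORO1A: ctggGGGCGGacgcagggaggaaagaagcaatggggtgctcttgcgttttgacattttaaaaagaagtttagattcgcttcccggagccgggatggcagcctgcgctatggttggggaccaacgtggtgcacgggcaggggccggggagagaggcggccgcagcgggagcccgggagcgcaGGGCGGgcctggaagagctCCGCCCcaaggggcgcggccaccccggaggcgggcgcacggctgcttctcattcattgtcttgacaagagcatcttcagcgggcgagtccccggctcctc
SWI5: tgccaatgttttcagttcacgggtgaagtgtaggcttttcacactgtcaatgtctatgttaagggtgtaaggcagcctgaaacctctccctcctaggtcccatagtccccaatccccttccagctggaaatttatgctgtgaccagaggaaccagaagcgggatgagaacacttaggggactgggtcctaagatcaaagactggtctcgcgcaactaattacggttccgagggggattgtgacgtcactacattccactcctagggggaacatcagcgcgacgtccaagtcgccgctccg
NOP16: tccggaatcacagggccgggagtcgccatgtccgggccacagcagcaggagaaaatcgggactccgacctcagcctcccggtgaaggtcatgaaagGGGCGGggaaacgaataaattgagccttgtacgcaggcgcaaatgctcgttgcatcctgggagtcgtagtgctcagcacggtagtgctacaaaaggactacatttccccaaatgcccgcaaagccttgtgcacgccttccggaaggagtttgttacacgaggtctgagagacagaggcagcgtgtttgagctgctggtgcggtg
EMG1: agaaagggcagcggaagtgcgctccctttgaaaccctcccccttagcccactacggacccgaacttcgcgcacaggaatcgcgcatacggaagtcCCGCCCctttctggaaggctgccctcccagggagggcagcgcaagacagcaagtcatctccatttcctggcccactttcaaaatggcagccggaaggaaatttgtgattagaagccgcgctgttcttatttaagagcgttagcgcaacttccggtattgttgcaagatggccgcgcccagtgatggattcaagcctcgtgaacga
The motif GGGCGG occurred in 19 of 29 promoters of higher genes with an entry (65.5%), 18 of 27 of lower genes (66.7%), 72.7% of the 6719 tested genes with an entry and 44.6% of all 27305 promoters of the table. CACGTG, the E-box of MYC, reads the same on both strands and does not overlap GGGCGG. It occurred in 13.8% of the higher genes, 7.41% of the lower genes, 11.2% of the tested genes and 7.43% of all promoters. These shares are descriptions, and a match describes letters, not a bound site.

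PRPH stood at 6.38 CPM on plate 1 and 12.1 on plate 2 with NexturastatA, against a lowest, median and highest value of 0, 0 and 3.71 in the reference and 0, 0 and 3.6 in DMSO. Both NexturastatA wells lay above every control well, the log2 fold change against the reference was 3.59 (SE 0.66, edgeR adjusted p = 0.00124), and its size rests on few counts. With Panobinostat, Quisinostat and Vorinostat against DMSO, PRPH rose by 5.36, 5.12 and 5.08 on the log2 scale. CORO1A stood at 13.8 and 8.07 CPM, against 0, 2.0 and 5.34 in the reference and 0, 3.15 and 7.85 in DMSO. Its 2 wells lay above all control wells, with a log2 fold change of 2.17 (SE 0.47, edgeR adjusted p = 0.00837). PRPH and CORO1A, low in all control wells, could pass the filter on low counts only through wells where they were high. Their p-values are therefore descriptions, and other higher genes of low level may share this limit.

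GLRX stood at 21.3 and 18.8 CPM with NexturastatA, against 0, 4.62 and 10.8 in the reference and 0, 7.72 and 19.6 in DMSO. The wells exceeded the reference, and the highest DMSO well lay between them. The log2 fold change was 1.88 (SE 0.36, edgeR adjusted p = 0.00166). HES1 stood at 37.2 and 64.5 CPM, against 12.8, 21 and 39.8 in the reference and 6.53, 15.9 and 25.8 in DMSO. The plate 1 well fell within the reference range and the plate 2 well above it, while both exceeded all DMSO wells. The log2 fold change was 1.15 against the reference (SE 0.22, edgeR adjusted p = 0.00124) and 1.66 against DMSO (edgeR adjusted p = 2.55e-07).

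Abundant genes showed the response with less error. SWI5 stood at 190 and 183 CPM with NexturastatA, against 93.3, 111 and 136 in the reference and 98.2, 127 and 205 in DMSO. Reference and NexturastatA wells did not overlap, whereas the highest DMSO well exceeded both, and the DMSO wells outside the first column reached 154. The log2 fold change was 0.73 (SE 0.12, edgeR adjusted p = 8.42e-05). RABAC1 stood at 79.7 and 59.1 CPM, against 25.9, 36.1 and 51.2 in the reference and 25.8, 40.4 and 58.1 in DMSO, above all control wells (log2 fold change 0.95, SE 0.19, edgeR adjusted p = 0.00184). H1-10 stood at 59.5 and 73.9 CPM, above the reference (25.2, 37.0 and 52.0) and inside the DMSO range (14.4, 46.3 and 68.5) on plate 1, with a log2 fold change of 0.80 (SE 0.18, edgeR adjusted p = 0.0111) and 0.55 against DMSO (adjusted p = 0.0917).

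**Figure D1:**
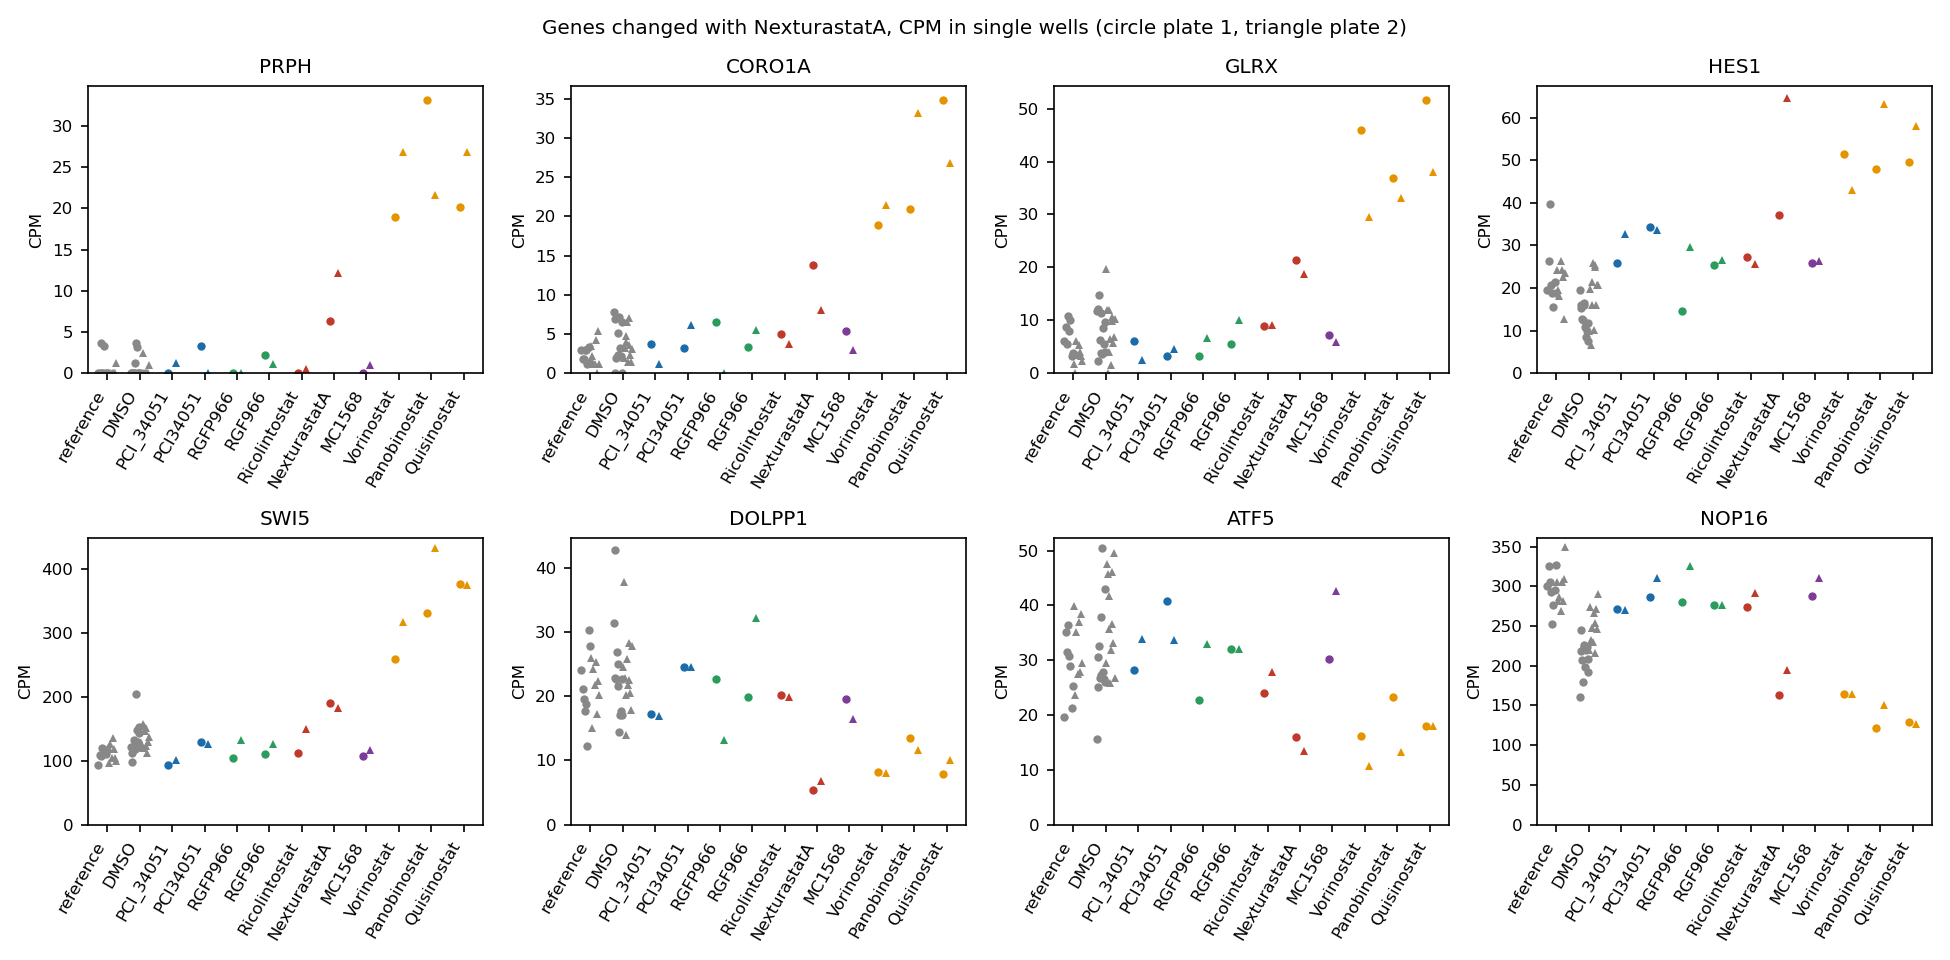
CPM (y axis) of 8 genes called with NexturastatA in every well of the reference, DMSO, the 7 names and the 3 broad inhibitors (x axis), with circles for plate 1 and triangles for plate 2. SWI5 lies at 190 and 183 CPM with NexturastatA against at most 136 in the reference, and NOP16 at 163 and 195 against at least 253.

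The higher genes kept their direction against DMSO. All 37 were above 0 there as well, 26 of them called, and their median log2 fold change was 0.89 against the reference and 0.79 against DMSO. The same NexturastatA wells chose these genes and enter both comparisons, so the shared direction is partly fixed by the choice and is a description. ID3 (1.36, SE 0.32, edgeR adjusted p = 0.0148) had only 0.53 against DMSO (adjusted p = 0.453), and TENT5B, a poly(A) polymerase family gene, had 3.28 and 1.06 (adjusted p = 0.0449 and 0.555), at 5.31 and 1.34 CPM in the 2 wells.

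The 30 lower genes held a group with a shared role. GNL3, NOP16, EMG1, BRIX1, GAR1, DDX21, WDR74 and IFRD2 belong to a list of ribosome assembly and related genes, and of its 60 members tested, 8 fell and 0 rose (median -0.36, beside a median of -0.0037 and 0.305% called lower over all genes). Against DMSO 1 of the 60 was called lower, EMG1, with a median of -0.21. This list was written after the calls of NexturastatA were seen, so its count is a description. In the other 6 names its median ran from -0.09 to 0.04. NOP16 stood at 163 and 195 CPM with NexturastatA, against 253, 297 and 350 in the reference and 161, 225 and 290 in DMSO. The NexturastatA wells lay below every reference well and within the DMSO range, with a log2 fold change of -0.74 against the reference (SE 0.11, edgeR adjusted p = 1.29e-05) and -0.38 against DMSO (adjusted p = 0.0544).

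EMG1, a methyltransferase of 18S ribosomal RNA, stood at 85 and 105 CPM, against 133, 148 and 181 in the reference and 102, 129 and 161 in DMSO. Both wells lay below the reference and 1 below the DMSO range, with a log2 fold change of -0.68 (SE 0.12, edgeR adjusted p = 0.00108) and -0.45 against DMSO (adjusted p = 0.0392). DPH2, which acts in diphthamide synthesis on a translation factor, stood at 47.8 and 47.0 CPM, below the reference (59.4, 79.8 and 108) and inside the DMSO range (43.2, 67.2 and 97.9). Its log2 fold change was -0.73 (SE 0.16, edgeR adjusted p = 0.00837) and -0.49 against DMSO (adjusted p = 0.111).

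DOLPP1, a phosphatase of dolichol recycling, moved furthest down among the lower genes named. It stood at 5.31 and 6.72 CPM, against 12.3, 21.4 and 30.3 in the reference and 13.9, 22.7 and 42.8 in DMSO. The wells lay below every control well of either kind, with a log2 fold change of -1.84 against the reference (SE 0.36, edgeR adjusted p = 0.00184) and -1.91 against DMSO (adjusted p = 4.13e-04). ATF5, a transcription factor of stress responses, stood at 15.9 and 13.4 CPM, against 19.6, 30.1 and 39.9 in the reference (-1.03, SE 0.27, edgeR adjusted p = 0.0449) and had -1.16 against DMSO (adjusted p = 0.00725). TMEM11 (-0.78), ZC3HC1 (-0.81) and PUF60 (-0.55) also held against both controls.

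Most lower calls depended on the control. Of the 30, 24 were below 0 against DMSO but only 6 were called there, their median was -0.65 against the reference and -0.36 against DMSO, and DMSO itself was called lower than the reference in 23 of them. KLF1, an activator of erythroid genes, stood at 173 and 196 CPM with NexturastatA, against 212, 264 and 326 in the reference and 84.8, 128 and 186 in DMSO. Its wells lay below the reference, 1 within and 1 above the DMSO range. The log2 fold change was -0.51 against the reference (SE 0.12, edgeR adjusted p = 0.0188) and 0.44 against DMSO (adjusted p = 0.0472). LMO2, a bridging factor of the GATA1 complex, stood at 23.4 and 25.5 CPM, against 31.5, 48.3 and 61.3 in the reference and 6.85, 19.7 and 28.8 in DMSO, below the reference and within the DMSO range, with -0.95 (SE 0.23, edgeR adjusted p = 0.021) and 0.34 (adjusted p = 0.62). Of 12 erythroid transcription factor genes tested, 2 fell and 0 rose with NexturastatA against the reference (median -0.30), and 3 rose and 0 fell against DMSO (median 0.36), so no direction is given for them. The other 6 names had 5 to 7 of these 12 called higher against DMSO, where 0.397% to 1.51% of all genes were called, and 0 called against the reference. DMSO itself was lower than the reference in 9 of the 12.

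The number of NexturastatA calls depended on both wells. With the wells of plate 1 left out 3 genes were called, and with those of plate 2 left out 1. The scaling mattered too: with totals set by the ERCC spike-in RNAs 3 genes were called and the median of all genes shifted by -0.11. Without the plate term 39 genes were called.

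The broad inhibitors gave a yardstick that shares no control well with the 7 names, since they were set against DMSO and the names against the reference. Panobinostat raised 1025 genes (10.4%) and lowered 809 (8.23%), 18.7% in all. Quisinostat raised 1069 (10.9%) and lowered 928 (9.44%), 20.3% in all. Vorinostat, in the shallowest of these wells (349720 and 371212 counts), raised 265 (2.7%) and lowered 162 (1.65%), 4.34% in all. All 3 raised 105 genes and lowered 23 by a log2 fold change of at least 1 in size, and these 128 genes are called the broad response here. The 105 had a median of 1.96, 2.06 and 1.82 in Panobinostat, Quisinostat and Vorinostat, and the 23 a median of -1.99, -1.71 and -1.59.

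NexturastatA showed the same directions at smaller size. The 128 genes were chosen for their size in the broad inhibitor wells, so larger values there are partly fixed by the choice. Of the 105 rising genes, 98 were above 0 with NexturastatA and 13 were called higher (0.376% of all genes were). The median was 0.66 (0.55 to 0.72 over all scalings, filters, tests and left-out wells tried). Only 19 of the 105 reached a mean log2 CPM of at least 5, with 18 above 0, 3 called higher and a median of 0.36. Genes of low level, PRPH and CORO1A among them, could pass the filter through wells where they were high. The count of 13 is therefore a description. Of the 23 falling genes, 0 were above 0, 1 was called lower (PTPN7, a phosphatase of blood cells, -0.68, beside 0.305% of all genes) and the median was -0.45. Against DMSO, the control that defined the broad response, PTPN7 had 0.11 with NexturastatA (edgeR adjusted p = 0.856). In the other 6 names 0 of the 128 were called, with medians of -0.16 to 0.08 over the 105 and -0.07 to 0.07 over the 23. The same medians for the reference compounds, each against the other 7, ran from -0.0952 to 0.0838 and from -0.1014 to 0.1368.

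Single wells showed the difference as well. The median difference of the 105 genes from the reference wells of the same plate was 0.55 and 0.54 in the NexturastatA wells and that of the 23 genes was -0.36 and -0.40. Reference wells ran from -0.0697 to 0.1551 and from -0.0987 to 0.1231, and DMSO wells from -0.1094 to 0.2337 and from -0.1657 to 0.3197. The 12 wells of the other 6 names ran from -0.0784 to 0.1101 and from -0.1555 to 0.1233, within or close to the reference range. Both NexturastatA wells lay outside all of these wells in both gene sets. They lay below the 1.37 to 1.98 of the broad inhibitor wells in the rising set, whose genes those wells chose.

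**Figure D2:**
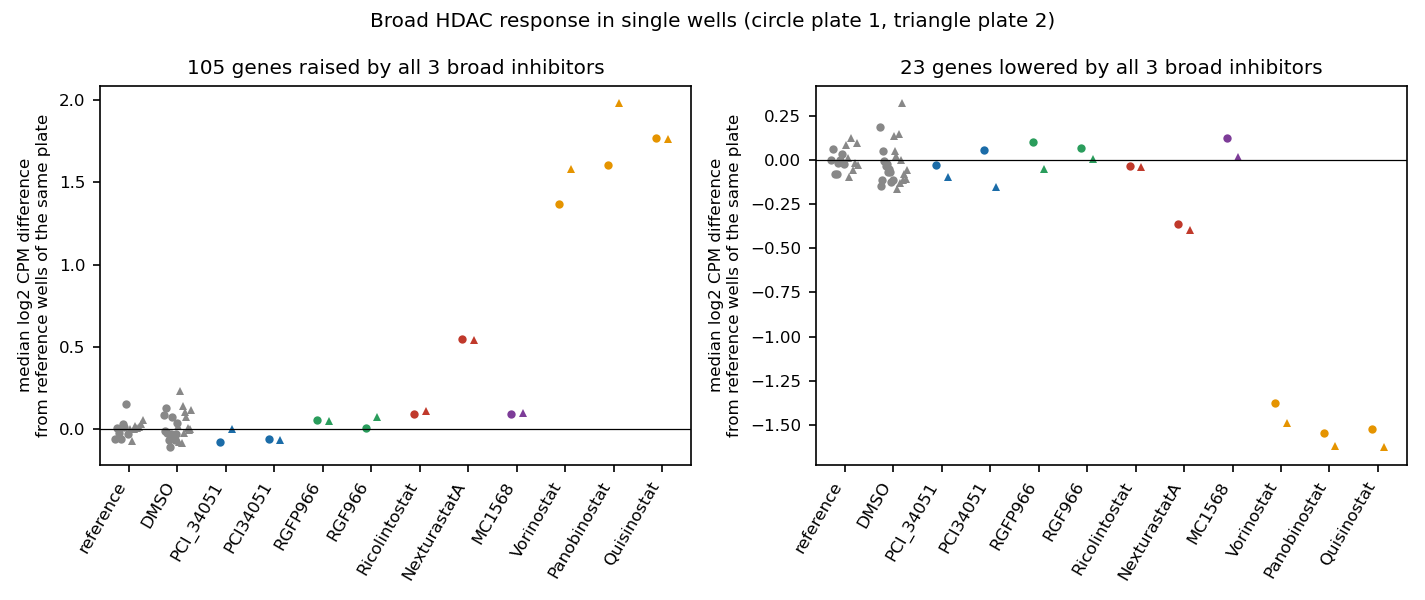
Median log2 CPM difference from the reference wells of the same plate (y axes) of the 105 genes raised (left) and the 23 genes lowered (right) by all 3 broad inhibitors, 1 point per well, by compound (x axes; circles plate 1, triangles plate 2). NexturastatA lies at 0.55 and 0.54 on the left and the other 6 names between -0.0784 and 0.1101.

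The members of the broad response differed in how far they followed with NexturastatA. The 13 called genes were WDR54, CORO1A, RABAC1, RND2, HES1, PRPH, TENT5B, GLRX, SWI5, CRYBG2, H1-10, SELENOM and SAP30-DT, of which TENT5B, CRYBG2, H1-10 and SAP30-DT (2.05, and 0.82 against DMSO) were not called against DMSO. H1-10 had 1.59, 1.73 and 1.27 with Panobinostat, Quisinostat and Vorinostat and 0.80 with NexturastatA. Other leading genes did not pass the test with NexturastatA. SAT1, which acetylates polyamines, had 2.36, 2.17 and 1.73 with the broad inhibitors and 0.16 with NexturastatA, and DNAJB1, an HSP40 chaperone, had 2.52, 2.26 and 1.21 and then 0.00. TUBB2A, a beta-tubulin, had 2.20, 2.11 and 1.22 and then 0.50. The immediate early gene IER2 had 0.27 with NexturastatA, CITED2, a cofactor of CBP and p300, 0.36, and VCL, a focal adhesion protein, 0.30. Among falling genes, HOXB2, a homeobox gene, had -3.55, -2.44 and -1.32 and then -0.42, and LTBR, the lymphotoxin beta receptor, had -2.33, -1.76 and -1.59 and then -0.66. CDKN1A, the cell cycle inhibitor often raised by HDAC inhibitors, stood at 5.31 and 6.72 CPM with NexturastatA and at 0, 2.41 and 7.53 in the reference (1.14, SE 0.54, edgeR adjusted p = 0.468), and it had 3.20, 3.10 and 1.80 with the broad inhibitors.

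**Figure D3:**
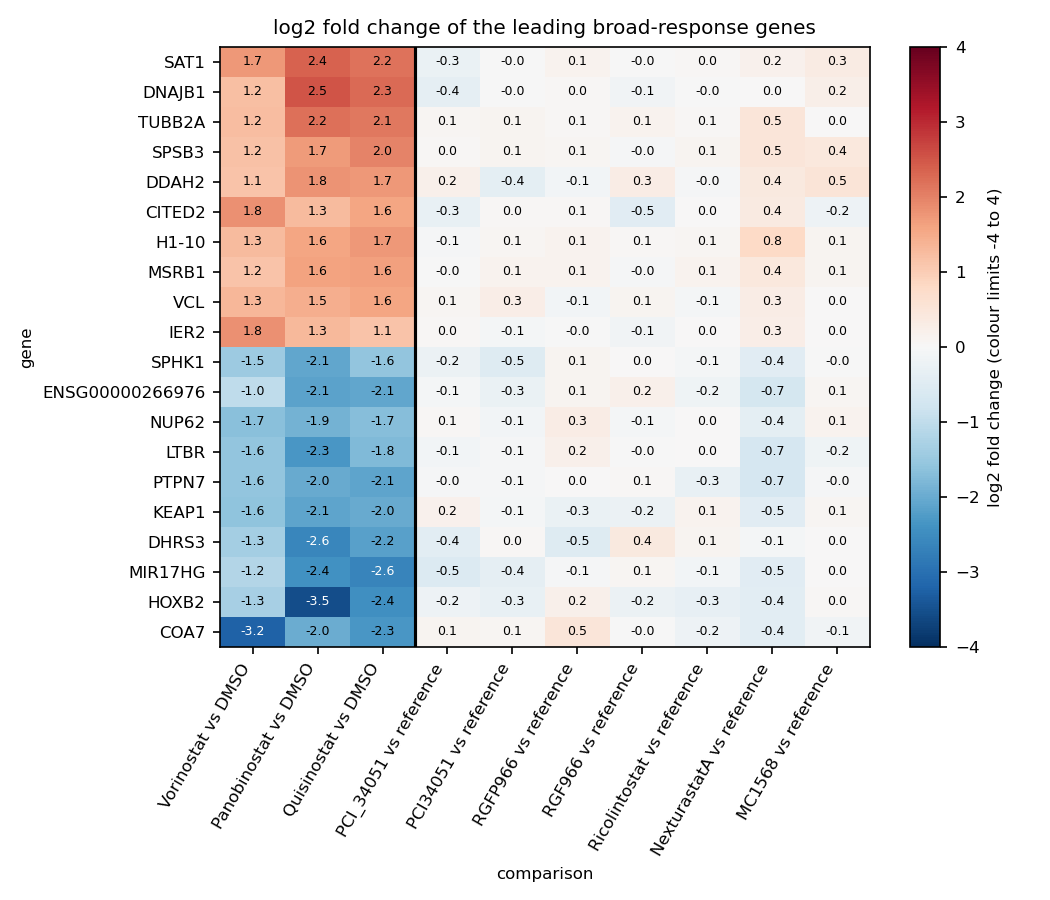
Log2 fold changes (colour and printed values) of the leading genes of the broad response (y axis) for the 3 broad inhibitors against DMSO and the 7 names against the reference (x axis). The genes were chosen for their size with the broad inhibitors. The NexturastatA column has the signs of the broad inhibitors at smaller size, from 0.00 for DNAJB1 to 0.80 for H1-10 among rising genes. The columns of the other 6 names scatter around 0.

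Read the other way, most genes called with NexturastatA against the reference were also called with a broad inhibitor against DMSO, so the controls differ. Of its 37 higher genes, 32 (86.5%) rose with Panobinostat, 29 (78.4%) with Quisinostat and 19 (51.4%) with Vorinostat. Over all genes tested 10.4%, 10.9% and 2.7% rose. The shared genes were 3.12%, 2.71% and 7.17% of the genes those raised, and 1 of the 37 fell with Quisinostat. Genes of low level could pass the filter through NexturastatA or broad inhibitor wells, so these shares are descriptions. Of its 30 lower genes, 22 (73.3%) fell with Panobinostat, 22 with Quisinostat and 11 (36.7%) with Vorinostat. Over all genes tested 8.23%, 9.44% and 1.65% fell. The shared genes were 2.72%, 2.37% and 6.79% of their lower genes, and 1 of the 30 rose with Panobinostat and 1 with Quisinostat. Against DMSO only 6 of the 30 were called lower with NexturastatA, and DMSO itself was called lower than the reference in 23 of them. Tested directly, NexturastatA differed from Panobinostat in 662 genes (6.73%, 4.25% lower in NexturastatA), from Quisinostat in 774 (7.87%, 4.89% lower) and from Vorinostat in 63 (0.641%, 0.458% lower). Of the 105 rising genes, 66, 76 and 15 were lower in NexturastatA than in Panobinostat, Quisinostat and Vorinostat. The same broad inhibitor wells chose these 105 genes, so those 3 counts are descriptions and not a separate test. The smaller count against Vorinostat goes with the shallow Vorinostat wells, whose part in it was not tested.

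Few members of the lists of HDAC-related function passed the test with NexturastatA. A list of 12 tested textbook HDAC inhibitor targets had 0 called and 11 above 0 (median 0.27), beside 10 called higher with Panobinostat (median 2.08) and 3 with Vorinostat. Of 21 immediate early genes 2 rose, HES1 and ID3 (median 0.28), and of 17 histone genes 1 rose, H1-10, beside 0.376% of all genes. ID3 and H1-10 were not called against DMSO (edgeR adjusted p = 0.453 and 0.0917). Of 22 genes for tubulins and HDAC6 substrates or partners 0 were called, with a median of -0.01 for NexturastatA and 0.05 for Ricolintostat. The 18 heat shock genes tested, whose regulator HSF1 is tied to HDAC6 through HSP90, had 0 called and medians of -0.09 and -0.02. Histone genes, tubulins and heat shock genes have near-identical copies, and their values are uncertain where reads are shared.

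Ricolintostat, also a hydroxamate named for HDAC6, lowered 5 genes against the reference, 4 of them mitochondrially encoded. They were MT-TP, MT-TS2 and MT-TE, which encode mitochondrial tRNAs, MT-ND6, a subunit of respiratory complex I on the light strand, and ENSG00000271043, an identifier with no symbol in the table used. MT-TP stood at 53.0 and 80.9 CPM, against 67.9, 115 and 179 in the reference wells of both plates pooled. The plate 1 well lay below that pooled range and the plate 2 well within it. Taken as differences from the reference mean of the same plate, both wells lay below all reference wells. The log2 fold change of MT-TP was -0.84 (SE 0.14, edgeR adjusted p = 0.000489). MT-TS2 stood at 110 and 190 CPM, against 133, 252 and 414 in the reference (-0.77, SE 0.13, edgeR adjusted p = 0.000489). Again 1 well lay below the pooled range, and both lay below all reference wells as differences from the mean of their plate.

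MT-ND6 stood at 158 and 151 CPM with Ricolintostat, below every reference well (178, 228 and 336), with a log2 fold change of -0.54 (SE 0.11, edgeR adjusted p = 0.0169). As a family, 13 of 13 mitochondrial mRNAs were below 0 (median -0.29, 1 called) and 17 of 17 mitochondrial tRNAs (median -0.46, 3 called). Over all 9833 genes tested 5044 were below 0 and 5 were called lower. The family counts are descriptions, and their genes are not taken as separate observations. MC1568 also had 12 of the 13 mRNAs below 0 (median -0.15) and NexturastatA 11 (median -0.05), while the names for HDAC8 and HDAC3 had 0 to 3. Of the 17 tRNAs, 11 were below 0 with MC1568 and 6 with NexturastatA. Mitochondrial transcripts took 8.20% of human counts in both Ricolintostat wells, against 9.06% to 10.9% in the reference, 8.52% to 10.6% in DMSO and 9.28% to 11% in the other 12 wells. The 1 higher gene was RPL10P8, a processed pseudogene of a ribosomal protein, which can share reads with its parent and copies (129 and 161 CPM against 78.3, 99.6 and 119, 0.57, SE 0.11, edgeR adjusted p = 0.00152). All 6 genes were also called against DMSO in the same direction.

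Other measures moved with these genes. The Ricolintostat wells were the deepest of the series, with 1603856 and 1906446 counts, had 3.21 and 3.53 reads per molecular identifier against 1.87 to 2.67 in the reference, and 7.15 to 8.01 human counts per ERCC count against 4.38 to 7.42. The part of depth in the result was not tested. With ERCC totals the median of all genes shifted by 0.42 in Ricolintostat, 0 genes were called lower and 3 higher, and the mitochondrial medians became 0.14 for mRNAs and -0.04 for tRNAs. With either plate left out 0 genes were called, and with GSK126 left out of the reference 10.

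**Figure D4:**
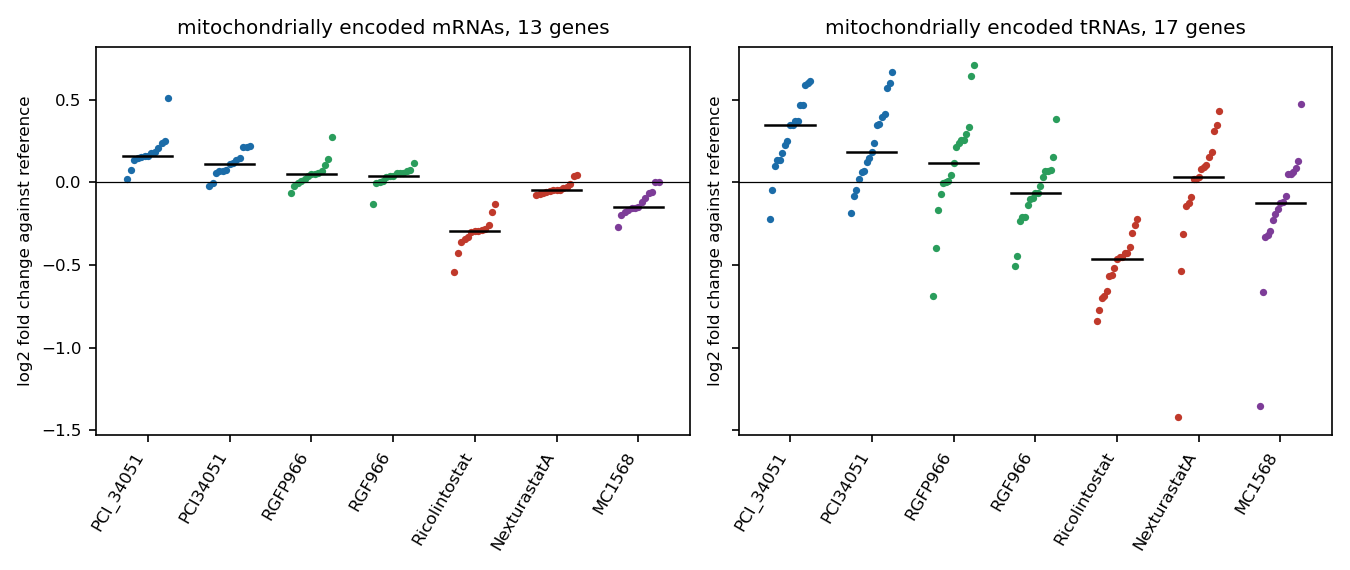
Log2 fold change against the reference (y axes) of 13 mitochondrially encoded mRNAs (left) and 17 tRNAs (right) for each of the 7 names (x axes), 1 point per gene with a bar at the median. All points of Ricolintostat lie below 0, with medians of -0.29 and -0.46.

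The 2 HDAC6 compounds as a pair, read as the mean of their log2 fold changes, had 10 genes higher and 12 lower than the reference (0.224%), fewer than NexturastatA alone. SWI5 (0.48, SE 0.09), GLRX (1.32, SE 0.28) and CORO1A (1.5, SE 0.37) were among the higher genes and NOP16 (-0.41, SE 0.07), EMG1 (-0.40, SE 0.08) and DOLPP1 (-0.98, SE 0.22) among the lower. The Ricolintostat values alone were 0.22 for SWI5, 0.76 for GLRX, 0.84 for CORO1A, -0.08 for NOP16, -0.11 for EMG1 and -0.12 for DOLPP1. In these genes the mean carried mostly NexturastatA. Other genes differed: MAD1L1 (-0.57) and SHFL (0.94) were called in the mean and with neither name alone. TENT5B (2.88) and MAD1L1 had 4 of 4 wells outside the reference range. Against DMSO SHFL (0.93) was called, while TENT5B (0.67) and MAD1L1 (-0.03) were not. Against DMSO, 5 of the 10 higher and 1 of the 12 lower genes were called in the same direction, and 2 of the 12 were called in the opposite one. With GSK591, Pinometostat or SGC_0946 left out of the reference 12, 13 and 13 genes were called, and with either plate left out 0.

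Compared directly, Ricolintostat and NexturastatA differed in 7 genes (0.0712%), with 711 at an unadjusted p under 0.05. NOP16 was higher in Ricolintostat by 0.67 (edgeR adjusted p = 0.0127 within the pair and 0.0305 over all 21 pairs), as was DPH2 by 0.81. PRPH differed by -4.33, a size that rests on few counts, and MT-TE (-0.97), MT-TS2 (-0.88), MT-TP (-0.86) and ENSG00000271043 (-0.61) were lower as well.

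The names for HDAC8 changed 1 gene between them. PCI34051 raised 1 gene, ZFP36L2, an mRNA decay factor that binds AU-rich elements: it stood at 76.7 and 109 CPM, against 34.5, 48.7 and 75.4 in the reference and 17.0, 33.6 and 52.0 in DMSO. Both wells lay above all control wells, with a log2 fold change of 0.90 (SE 0.17, edgeR adjusted p = 0.00908). The call was lost with either plate left out, with library size alone and with ERCC totals. In PCI_34051 the same gene stood at 58.9 and 43.4 CPM, inside the reference range, with 0.05 (SE 0.18). Cohesin genes, the family of the HDAC8 substrate SMC3, had 0 of 12 called in either name (medians -0.04 and 0.08).

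PCI_34051 had 0 calls, and the smallest p among genes of sufficient level belonged to CTTN, an actin-binding protein, and CHP1, a calcium-binding protein. CTTN stood at 44.2 and 51.8 CPM against 62.1, 81.0 and 101 in the reference (-0.75, SE 0.19, edgeR adjusted p = 0.327), and CHP1 at 38.0 and 27.7 against 40.4, 71.1 and 93.7 (-1.09, SE 0.28, edgeR adjusted p = 0.327). All of these wells lay below the reference range, yet neither gene passed the threshold. The mean of both HDAC8 names had 0 genes called (0.0%), 590 at an unadjusted p under 0.05, and 12 in the fit without DMSO and the broad inhibitors. PCI_34051 and PCI34051 differed from each other in 0 genes (0.0%), with 377 at an unadjusted p under 0.05, 0 over all 21 pairs and a median interval half-width of 0.45 at a mean log2 CPM of at least 5. For 92.1% of these genes the interval of the difference lay within a 2-fold change in either direction.

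The names for HDAC3 changed 0 genes singly and 0 as a mean (0.0%, 349 at an unadjusted p under 0.05). RGFP966 had its smallest p among such genes in CHP1, at 27.5 and 26.4 CPM, below the reference wells (-1.38, SE 0.33, edgeR adjusted p = 0.388). RGF966 had its smallest in TLK1, a chromatin assembly kinase (0.69, edgeR adjusted p = 1.0), and CHP1 there had 0.32 (SE 0.21). Of 29 corepressor genes, the family of NCOR1, 0 were called in any of the 7 names, and of 20 sterol synthesis genes 0 were called in RGFP966 or RGF966 (medians 0.01 and 0.07). RGFP966 and RGF966 differed from each other in 0 genes (0.0%, 429 at an unadjusted p under 0.05, 11 in the fit without DMSO and the broad inhibitors), with a median interval half-width of 0.44 and 92.2% of intervals within a 2-fold change.

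MC1568, named for class IIa, changed 0 genes. Its smallest p values among such genes were those of RPS24P21 (-0.57) and RPS3AP51 (-0.68), pseudogenes whose reads can belong to their parents, and NLE1, a ribosome assembly factor (0.56, edgeR adjusted p = 0.845 for each). Of 16 genes of the MEF2 family and its targets only 5 were abundant enough to test, with 0 called and a median of -0.09. Globin and erythroid effector genes (26 tested) had 0 called in any of the 7 names, as had the mitotic (23), G1/S (24), ATF4 stress (17), interferon (9), metallothionein (3) and small nucleolar RNA host (13) lists.

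Against DMSO every name had calls, a count that includes the offset between the controls. PCI_34051 had 57 genes (0.58%), PCI34051 44 (0.447%), RGFP966 39 (0.397%), RGF966 53 (0.539%), Ricolintostat 148 (1.51%), NexturastatA 129 (1.31%) and MC1568 76 (0.773%). The means by enzyme had 258 (HDAC8, 2.62%), 147 (HDAC3, 1.49%) and 331 (HDAC6, 3.37%). With DMSO wells outside the first column alone the counts by name ran from 57 (PCI34051) to 242 (MC1568), with 214 for NexturastatA.

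All 21 pairs of the 7 names were tested, matched for time only. Over all genes and pairs together 24 differences passed the threshold (0.0116%), in 11 pairs: 12 involved NexturastatA, 13 Ricolintostat and 2 neither. PCI_34051 and Ricolintostat differed in 25 genes within the pair, 7 of them over all 21, and these 7 include MT-TS2, MT-TP, MT-TE, MT-ND5 and CBX6. NOP16 separated NexturastatA from Ricolintostat, PCI34051, RGFP966 and MC1568, and DOLPP1 separated it from RGF966 by 2.09. KLF1 was lower in NexturastatA than in RGFP966. With either plate left out, or without the plate term, 0 differences passed, and 414 passed in the fit without DMSO and the broad inhibitors.

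The 2 differences that involved neither HDAC6 compound were those of CBX6, a Polycomb chromobox gene, and CTTN. CBX6 stood at 7.36 and 2.41 CPM with PCI_34051 and 23.1 and 39.8 with RGF966, against 10.8, 19.9 and 31.8 in the reference, and differed by -2.65 (SE 0.49, edgeR adjusted p = 0.0199 over all pairs). The PCI_34051 wells lay below the reference range, and 1 RGF966 well lay above it. CTTN was lower in PCI_34051 than in MC1568 by 1.14 on the log2 scale (edgeR adjusted p = 0.0305 over all pairs). Where a pair had 0 genes past the threshold, the intervals bound the difference and do not show that the compounds act alike.

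**Figure D5:**
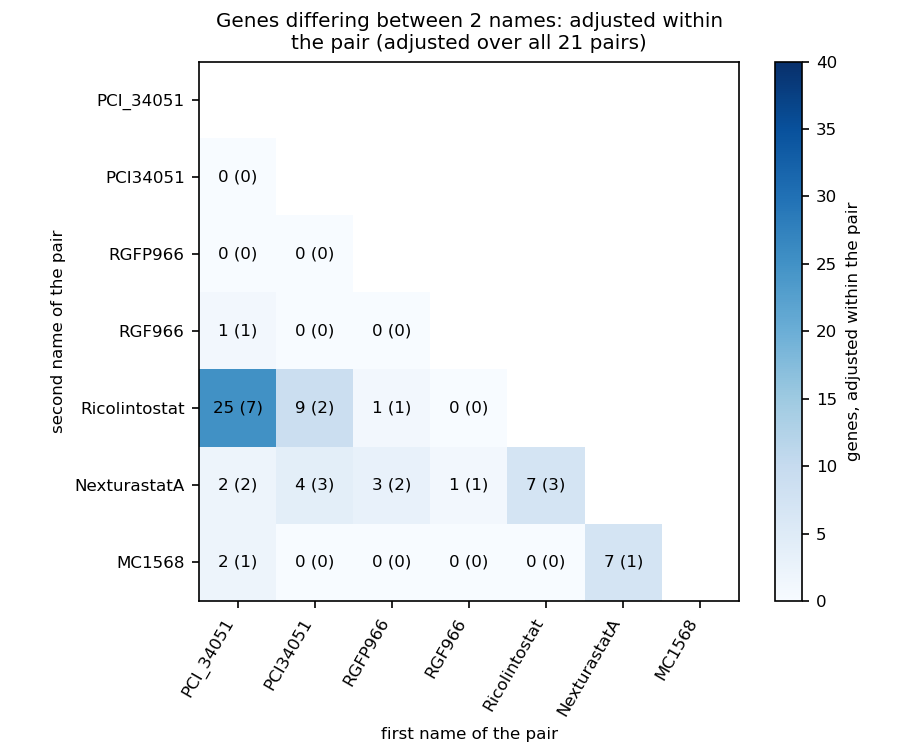
Genes differing between each pair of the 7 names (first name on the x axis, second on the y axis), as a count adjusted within the pair and, in brackets, adjusted over all 21 pairs. PCI_34051 against Ricolintostat holds the most, 25 (7), and the 2 pairs named for HDAC8 and for HDAC3 hold 0 (0).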

How the data were processed

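The authors sequenced 1 pooled library per plate, split it by well barcode and deposited expected counts (estimated counts) per gene and well, 1 table per plate, per the labels' protocols. All values of the 57905 gene lines and 92 ERCC lines are whole, and 6 summary lines were left out. Build GRCh37 (hg19), R 4.0.2, cutadapt 2.1, FastQC 0.11.6 and bcl2fastq 2.17.1.14 are the build and tools listed in the submitters' processing notes, while the aligner is not given in the sources used here. Amplified copies can count more than once, and 3′ counting gives no length scale between genes.

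The 60 wells of the 7 names, the reference, DMSO and the 3 broad inhibitors were fitted with edgeR 4.0.16 (R 4.3.3): filterByExpr, TMM, a term per group and an additive plate term, quasi-likelihood tests on 47 residual degrees of freedom, and Benjamini-Hochberg adjustment over 9833 genes at 0.05. The filter asks for enough counts in as few wells as the smallest group holds, 2 here. A gene high with 1 compound alone can thus enter the test. CPM values use TMM-scaled totals of the genes tested, except those of the cell markers. The SE of a log2 fold change is its size divided by the square root of the F value of the quasi-likelihood test. The 95% intervals use this SE with 47 degrees of freedom, so both are approximations. DESeq2 1.42.0 was an alternative. On simulated counts of 9833 genes, 200 of them changed, a comparison built like that of NexturastatA (2 wells against 16) recovered 53% of 2-fold and 84% of 4-fold changes with 10 false calls, and an unchanged name gave 0. All simulated wells were drawn around the reference mean of each gene. They held no plate or position effect, no offset between the controls and no response to the broad inhibitors, unlike the data. The plate pairs the duplicates, and 0 of them were identical (chi-square per degree of freedom 1.218 to 2.03).

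Members and gene lists were chosen with earlier results of these data known. Genes named are, per direction, up to 10 of the largest changes past the threshold at a mean log2 CPM of at least 5 with 1 sign in both wells (where fewer than 3 passed, the 3 of smallest p), up to 10 leaders of the broad response, up to 4 members per list and the HDAC genes. PRPH, CORO1A, GLRX, ID3, TENT5B, DOLPP1, ATF5, KLF1, LMO2, CBX6 and other genes below that level or rank were chosen after their values were seen. Symbols named 38648 of the 57905 gene lines. Promoters came from RefSeq (GRCh38.p14), a build other than that of the files, matched by symbol. A marker gene is not reported here.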

Additional observations from a re-analysis of the deposited data

How the results depend on the processing

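On simulated counts 2 wells per name recovered 53% of 2-fold changes over all genes and 95% at a mean log2 CPM of at least 5. In that setting, without plate, position or control offsets, a count of 0 bounds abundant genes better than rare ones. Values of all genes called for a name or a pair by enzyme, and of those nearest the threshold where few were called, were recomputed 2204 times over all settings and kept their direction in 2184. The 20 exceptions all came with DMSO as the control, 10 with all DMSO wells and 10 with those outside the first column. The other settings reused wells that chose these genes, so a kept direction there was largely fixed by the choice. Of 96 called values, 41 stayed called under every scaling other than ERCC, filter, test, choice of fitted wells and left-out reference compound, 13 with ERCC totals and 0 with each plate alone. The causes were not tested, except that a left-out plate leaves 1 well per name, assumed to vary like the other groups.

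Counts are given in the order PCI_34051, PCI34051, RGFP966, RGF966, Ricolintostat, NexturastatA, MC1568 and then HDAC8, HDAC3 and HDAC6. With all DMSO wells as control they were 57, 44, 39, 53, 148, 129, 76, 258, 147 and 331, and with those outside the first column 97, 57, 81, 84, 218, 214, 242, 229, 163 and 349. Against these 2 controls the values that changed direction were LMO2 (0.34 and 0.41), KLF1 (0.44 and 0.39), PTPN7 (0.11 and 0.21), KCNH2 (0.10 and 0.13) and PTP4A3 (0.076 and 0.18) for NexturastatA, with FADS1 (0.016) against the first alone, and LMO2 (0.68 and 0.76), PTPN7 (0.31 and 0.41), FADS1 (0.19 and 0.17) and KCNH2 (0.30 and 0.32) for HDAC6, with MAD1L1 (0.0095) against the second alone.

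With only the 7 names and the reference fitted, PCI_34051 gave 7, RGFP966 1, Ricolintostat 45, NexturastatA 122, MC1568 9, HDAC8 12, HDAC6 68, RGFP966 against RGF966 11, Ricolintostat against NexturastatA 45 and all 21 pairs 414. With ERCC totals PCI34051 gave 0, Ricolintostat and NexturastatA 3 each, HDAC6 14, those pairs 2 and 194, the 21 pairs 8 and DMSO 1805. With library size alone PCI34051 gave 0, Ricolintostat 22, HDAC6 14 and the HDAC6 pair 13. DESeq2 size factors gave Ricolintostat 14 and that pair 18, and DESeq2's test 28, 22 and 62 over the 21 pairs. Without the filter NexturastatA gave 43, HDAC6 4, the HDAC3 pair 3, the HDAC6 pair 3 and the 21 pairs 10. A log2 fold change of 2 left 38 genes in the broad response.

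The plate is the replicate block of the design. With no replicate block PCI34051 gave 0 genes, Ricolintostat 1, NexturastatA 39, HDAC6 9, the HDAC6 pair 0 and the 21 pairs 0. With 1 plate left out the counts were 0 to 1 for PCI_34051, 0 to 0 for PCI34051, Ricolintostat, HDAC6, the HDAC6 pair and the 21 pairs, 1 to 3 for NexturastatA, 35 to 37 for the broad response and 72 to 328 for DMSO. With 1 reference compound left out they were 0 to 1 for PCI_34051 (1 without EtOH), 5 to 10 for Ricolintostat (10 without GSK126), 55 to 65 for NexturastatA and 12 to 26 for HDAC6 (12, 13 and 13 without GSK591, Pinometostat and SGC_0946).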
